A study of Mus musculus with 64 samples.

Results

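The subunits of oxidative phosphorylation complexes I, III, IV and V were examined in RNA-seq libraries of bone marrow and spleen from mice homozygous for scat, an allele of Rasa3, and from wild-type mice. Members were the protein-coding genes whose symbols begin with mt-Nd, mt-Co, mt-Cytb, mt-Atp, Ndufa, Ndufb, Ndufc, Ndufs, Ndufv, Uqcr, Cox4 to Cox8 or Atp5, leaving out the Ndufaf assembly factors. The deposited table of normalised gene counts lists 91 of them among 26286 genes, 13 encoded by the mitochondrial genome and 78 by the nucleus. Complex I has 7 mitochondrial and 36 nuclear members, complex III has 1 and 8, complex IV has 3 and 16, and complex V has 2 and 15. The other nuclear members were Ndufa4l2, a paralogue of the complex IV subunit Ndufa4 that is induced in low oxygen, Cox7a2l, which joins complexes III and IV, and Atp5s, which carries the symbol but is no subunit. The symbols Cox7b2, Cox8c and Atp5g2 and another identifier of Atp5o match the rule and are not listed in the table.

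The libraries came from whole tissue, from megakaryocyte-erythroid progenitors (MEP) and from stem and myeloid progenitors (SMP, sorted as lineage-negative, Sca1-negative, Kit-positive, CD34-positive and CD16/32-low cells) of both organs, which makes 6 populations. In the order remission, crisis, young wild type and older wild type, the groups were scat/scat mice in partial remission at 32 to 58 days of age (17 libraries of 5 mice), scat/scat mice in crisis at 23 to 28 days (18 libraries of 3 mice, 1 of each mouse in every population), wild-type (WT) mice of 23 to 28 days (18 libraries of 7 mice) and WT mice of 32 to 58 days (10 libraries of 3 mice). All mice were of the CbyJ.Cby-Rasa3(scat)/Llp strain, scat/scat or +/+, and because BALB mice have little Sca1 the SMP gate does not part haematopoietic stem cells from common myeloid progenitors. Rasa3 encodes a GTPase-activating protein for Ras and Rap1, and scat mice pass through episodes of severe anaemia (crisis) and partial recovery. Crisis and young WT mice are of similar age, whereas remission mice were older than crisis mice, so state and age cannot be told apart between remission and crisis. Each group of a population has at most 3 libraries, each of a different mouse, and 1 whole spleen library whose group could not be settled from its labels entered no comparison.

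Mitochondria make most of a cell's ATP by passing electrons from NADH (complex I) and succinate (complex II) through complex III and cytochrome c to oxygen (complex IV), while complexes I, III and IV pump the protons that drive ATP synthase (complex V). Complexes I, III, IV and V are built from proteins encoded in both genomes, and complex II from nuclear ones alone: mitochondrial DNA is transcribed from long polycistronic precursors inside the organelle, while the nuclear subunits are transcribed gene by gene and imported. Erythroid progenitors are rich in mitochondria, which carry out steps of haem synthesis, and mitochondria are cleared late in red cell maturation.

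The promoters of 3 nuclear members called higher in crisis in both SMP populations and holding motifs of NRF1 and GABPA, 2 factors known for nuclear respiratory genes, are shown beside that of Cox6b2, the member with a large change in most populations. Each window holds 250 bases before to 50 after the RefSeq start (GRCm38.p6), all on the minus strand, and capitals mark matches on either strand to GCATGCG (NRF1) or CCGGAAG (GABPA). The windows are Uqcr11 at chr10:80406772-80407071, Cox6a1 at chr5:115348909-115349208, Atp5l at chr9:44920693-44920992 and Cox6b2 at chr7:4753045-4753344.
Uqcr11: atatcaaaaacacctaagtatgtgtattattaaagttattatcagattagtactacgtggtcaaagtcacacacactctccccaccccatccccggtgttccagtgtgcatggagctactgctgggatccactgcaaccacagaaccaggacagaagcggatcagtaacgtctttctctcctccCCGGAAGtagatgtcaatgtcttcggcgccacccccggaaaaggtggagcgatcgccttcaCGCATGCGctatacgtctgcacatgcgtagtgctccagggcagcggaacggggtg
Cox6a1: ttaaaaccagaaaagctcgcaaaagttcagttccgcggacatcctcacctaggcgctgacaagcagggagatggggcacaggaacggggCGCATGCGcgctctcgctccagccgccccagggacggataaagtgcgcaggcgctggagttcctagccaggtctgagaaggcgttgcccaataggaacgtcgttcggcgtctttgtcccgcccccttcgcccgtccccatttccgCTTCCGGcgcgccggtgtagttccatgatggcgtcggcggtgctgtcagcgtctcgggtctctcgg
Atp5l: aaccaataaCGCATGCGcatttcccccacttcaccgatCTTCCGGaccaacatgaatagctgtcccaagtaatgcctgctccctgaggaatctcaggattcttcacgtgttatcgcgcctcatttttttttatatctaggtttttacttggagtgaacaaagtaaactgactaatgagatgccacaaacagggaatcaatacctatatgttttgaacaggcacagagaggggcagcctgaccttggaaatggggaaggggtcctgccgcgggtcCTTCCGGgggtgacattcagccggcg
Cox6b2: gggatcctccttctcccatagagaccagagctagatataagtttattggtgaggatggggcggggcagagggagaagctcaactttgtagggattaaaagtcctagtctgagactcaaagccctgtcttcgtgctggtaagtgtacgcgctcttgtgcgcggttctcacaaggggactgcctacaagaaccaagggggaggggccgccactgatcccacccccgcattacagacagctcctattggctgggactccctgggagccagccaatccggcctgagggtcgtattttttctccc
RefSeq windows were matched by symbol for 62 of the 78 nuclear members. GCATGCG or its reverse complement CGCATGC was found in 9 of these 62 (14.5%), among them Atp5j, Atp5k, Ndufa6, Ndufa8, Ndufa11 and Uqcrc1 besides the 3 shown, and in 4.01% of all 27025 genes with a window. CCGGAAG or CTTCCGG was found in 14 of the 62 (22.6%), against 9.93% of all genes. AAGATGG or CCATCTT, a core of the YY1 motif, was found in 10 of the 62 (16.1%), against 7.28% of all genes. Overlapping matches on both strands were counted once, and the Cox6b2 window holds none of these letters. A match describes the letters of the window and was not tested as a site.

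The sum of normalised counts per library, which is not a read depth, was 33.6 to 107.62 M (median 50.645 M), and 16413 to 19940 genes were above 0. The mitochondrial members took 1.735% to 6.579% of a library (median 3.3335%) and the nuclear members 0.4101% to 1.159%. Levels per kilobase were averaged over all libraries on a common scale and use the union of a gene's annotated exons. The 13 mitochondrial members had a median level of 99380 normalised counts. The 73 nuclear members past the filter (a mean of at least 10) in every population had a median level of 2215, a ratio of 44.9. That union can exceed a single transcript, as for Ndufab1 with 6883 bases and a longest annotated transcript of 3479. Nuclear levels per kilobase, the ratio and the ranking depend on it. The highest mitochondrial level per kilobase was that of mt-Co1 (414800), the catalytic subunit of complex IV, followed by mt-Atp6 (340700), and the lowest that of mt-Nd4l (22920). Among nuclear members the highest levels per kilobase were those of Atp5b (17050) and Atp5a1 (16370), the beta and alpha subunits of the catalytic head of ATP synthase, and of Cox8a (11960). Several members carry the limits of counting. The values of mt-Nd4l equalled those of the nuclear gene Gm10222 in all 64 libraries, so the pair cannot be told apart. The level of mt-Nd4l and its place as the lowest can depend on how reads of the pair were shared. Atp5g1, Ndufab1 and Ndufb4 share near-identical sequence with Gm10039, Gm4459 and Ndufb4c. Exons of 27 nuclear members overlap exons of a gene on the opposite strand, mt-Atp6 overlaps mt-Atp8, and mt-Nd4 overlaps mt-Nd4l. Whether counting used the strand is not given in the sources used here.

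**Figure D1:**
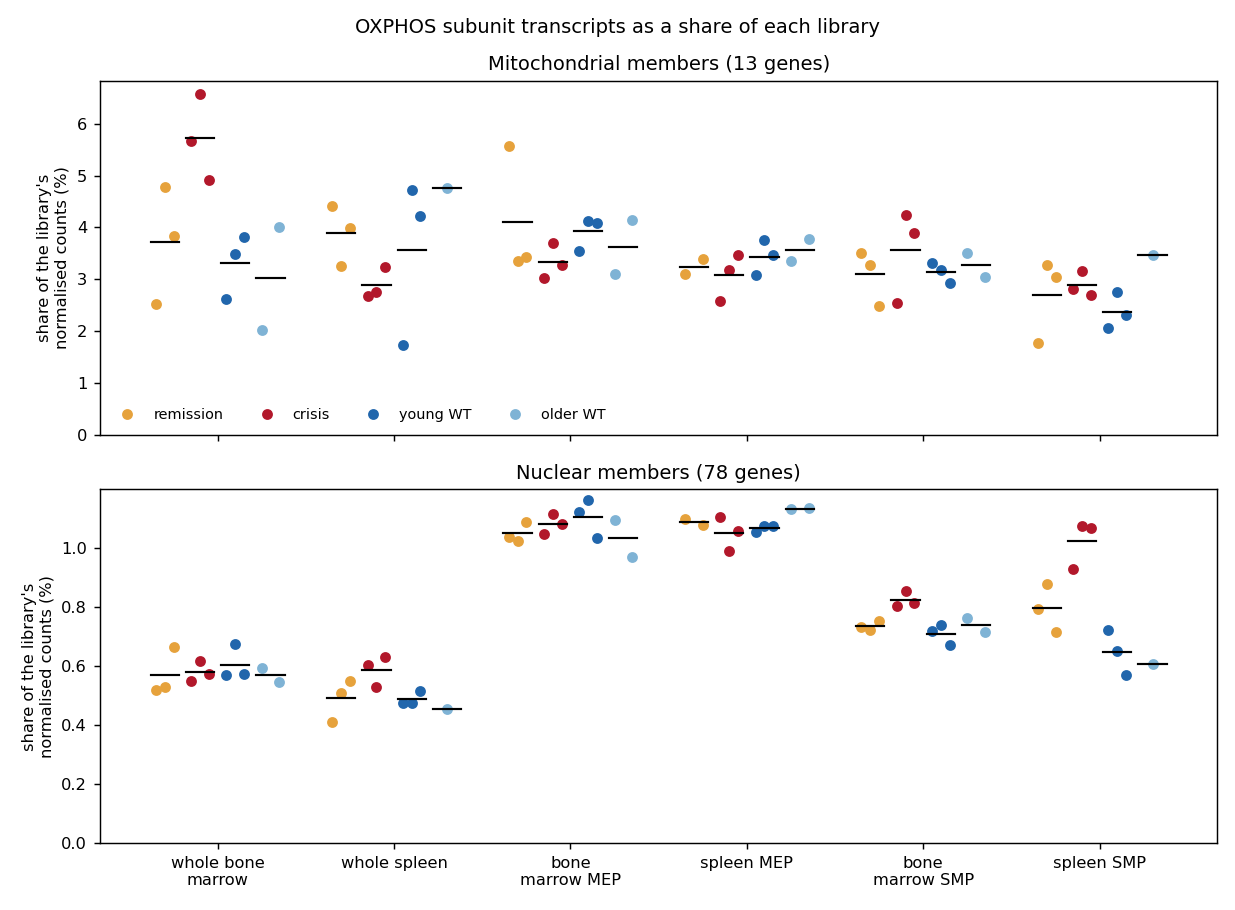
Share of each library's normalised counts (%, y axes) taken by the mitochondrial members (top) and the nuclear members (bottom), for the 6 populations (x axis) with groups ordered remission, crisis, young WT, older WT. Points are libraries and bars group means. In whole bone marrow the crisis libraries have the highest mitochondrial shares (4.917% to 6.579%), and in spleen SMP they have the highest nuclear shares (0.9289% to 1.072%).

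In the crisis comparisons below, log2 changes are crisis over young WT on log2(rescaled normalised count + 1), and a gene is called at an adjusted p under 0.05 (limma, Benjamini-Hochberg over all genes tested in that population). A member is tested where its mean is at least 10. The levels printed per library are normalised counts rescaled within the population (by the median-of-ratios factor of each library, which in spleen SMP ran from -0.918 to 0.475 on the log2 scale), whereas shares of a library are on the deposited values. In whole bone marrow mitochondrial transcripts took a larger share of the RNA in crisis than in young WT. The mitochondrial share was 5.668%, 6.579% and 4.917% in crisis libraries, against 2.628%, 3.479% and 3.825% in young WT libraries, and the groups did not overlap. The nuclear share averaged 0.58% ± 0.034 in crisis libraries and 0.604% ± 0.0594 in young WT libraries (SD, n = 3 each). All 13 mitochondrial members had higher means in crisis, 12 without overlap of the groups, where 15.3% of all genes had none and were higher, with a median log2 change of 1.01, while the 77 nuclear members tested had a median of 0.20 and all 16129 genes tested a median of 0.01.

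The 4 mitochondrial members called higher in whole bone marrow were mt-Co1, mt-Co2, mt-Co3 and mt-Atp6, which encode the 3 mitochondrial subunits of complex IV and the proton channel subunit of ATP synthase. For mt-Co1 (chrM:5328-6872, plus strand, GRCm38) the level was 1330000, 1526000 and 1118000 normalised counts in crisis libraries, against 460200, 664300 and 685900 in young WT libraries (log2 change 1.15, SE 0.283, adjusted p = 0.0381). The lowest crisis library was above the highest young WT library. For mt-Atp6 the level was 447100, 512200 and 384000 in crisis libraries, against 166100, 196900 and 251300 in young WT libraries (log2 change 1.14, SE 0.286, adjusted p = 0.0395). The log2 changes of mt-Co2 and mt-Co3 were 1.11 (adjusted p = 0.0398) and 1.09 (adjusted p = 0.043). The other 9, complex I subunits, mt-Cytb of complex III and mt-Atp8, had log2 changes of 0.83 (mt-Nd3) to 1.42 (mt-Atp8) and were not called, although all 13 had an unadjusted p under 0.05.

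Cox6b2 was the single nuclear member called in whole bone marrow. It encodes an isoform of subunit 6b of complex IV best known from testis, and its level was 1503, 2249 and 1700 in crisis libraries, against 567, 889.7 and 614 in young WT libraries (log2 change 1.40, SE 0.305, adjusted p = 0.0296). Its ubiquitous counterpart Cox6b1 had overlapping groups (fold 1.16, adjusted p = 0.572). The 5 members called compare with 3.52% of all genes called higher, and the 22 members with an unadjusted p under 0.05, 9 of them nuclear, with 25.5% of all genes. No member was called when any 1 crisis or young WT library was left out, except for 3 without crisis mouse 2608. In those fits 12 or more members had an unadjusted p under 0.05, and the share of all genes at that p is not given here. On the values as deposited 1 member was called. Without mice 2726 and 27265, a remission and an older WT mouse of 58 days that widen the spread, 10 members were called higher, 9 of them mitochondrial, against 5.17% of all genes. Erythroblast markers moved with this result: 4 of 8 were called higher, and their summed level was 7815000 to 10900000 in crisis libraries, against 3586000 to 7174000 in young WT libraries. Of 4 monocyte and macrophage markers 3 were called higher, and of 4 B cell markers 2 were called lower. The part of cell composition in the mitochondrial result was not tested, and in bulk samples a change in the number of cells of a type and a change in RNA per cell cannot be told apart.

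In whole spleen the nuclear members were high in crisis, while the mitochondrial groups overlapped. Of the 75 nuclear members tested, 60 had crisis libraries all above young WT libraries, where 28.3% of all genes did, and their median log2 change was 0.69 against -0.05 for all genes. None was called higher in the fit of all 4 groups, in which 2.8% of all genes were called higher and 24 members, all nuclear, had an unadjusted p under 0.05, against 36.1% of all genes. Leaving out mouse 2726 (27265 has no library in this fit) left the log2 changes as they were and narrowed the spread: 60 nuclear members were then called higher (26 of complex I, all 8 of complex III, 11 of complex IV, 14 of complex V and Atp5s), against 23.4% of all genes. Remission mouse 2726 is the library at 137.4 for Cox6b2, where the other remission libraries had 1927 and 2089. The mitochondrial members had a median log2 change of 0.18, none had an unadjusted p under 0.05 in the fit of all 4 groups, and none was called without mouse 2726. Their share was 2.686%, 2.751% and 3.24% in crisis libraries, against 1.735%, 4.718% and 4.221% in young WT libraries. One young WT library, of mouse 2658, lay below and the others above all crisis libraries, and without it the mitochondrial median was -0.35.

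Single members illustrate the spleen. Atp5b had 106700, 111700 and 97120 normalised counts in crisis libraries, against 58310, 47460 and 51610 in young WT libraries (log2 change 1.01, adjusted p = 0.129, and 0.000544 without mouse 2726). Ndufs1, an iron-sulfur subunit in the NADH-oxidising arm of complex I, had 10710, 10740 and 9345 in crisis libraries, against 6334, 5489 and 5354 in young WT libraries (log2 change 0.84, adjusted p = 0.0715). Ndufs3, another core subunit, had a log2 change of 0.79 (adjusted p = 0.0574). Cox6b2 had 3209, 3971 and 4165 in crisis libraries, against 843.1, 722.5 and 693.6 in young WT libraries (log2 change 2.32, SE 0.874, adjusted p = 0.0948, and 3.57e-06 without mouse 2726). Cox6a2, the heart and skeletal muscle isoform of subunit 6a, went the other way at a low level, with 34.62, 27.28 and 39.05 in crisis libraries, against 111.6, 96.16 and 106.9 in young WT libraries (log2 change -1.62, SE 0.395, adjusted p = 0.0303), and was the single member called lower, where 12.4% of all genes were. In the same libraries all 4 B cell and all 5 T and NK cell markers were called lower, with B cell sums of 4771 to 11790 in crisis libraries, against 85340 to 101100 in young WT libraries, and erythroblast sums were 13390000 to 29310000, against 11870000 to 12610000. Their part in the nuclear values was not tested.

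**Figure D2:**
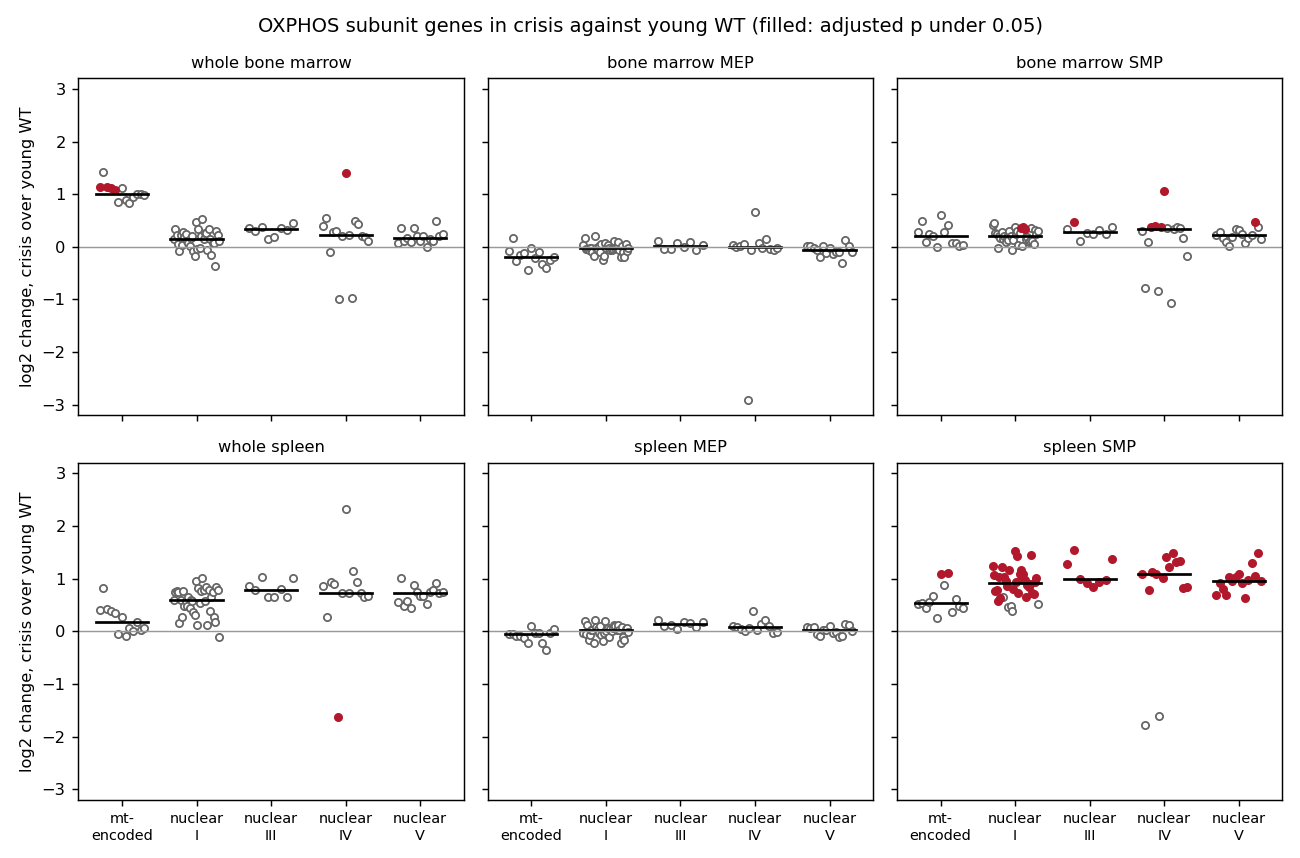
Log2 change of every tested member of complexes I, III, IV and V (points), crisis over young WT, in the 6 populations (panels), by genome and complex (x axis); filled points have an adjusted p under 0.05 and bars are medians. The mitochondrial members sit at a median of 1.01 in whole bone marrow, and the nuclear members at a median of 0.96 in spleen SMP, where most are filled.

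In MEP of either organ no member was called between crisis and young WT, and the medians lay near 0. Bone marrow MEP had no member called, where 0.00693% of all genes were, and the nuclear members had a median log2 change of -0.03 and the mitochondrial ones of -0.20. Of the 87 members tested there 2 had an unadjusted p under 0.05, against 12.7% of all genes. Spleen MEP had no member called either (0.0366% of all genes), with medians of 0.04 for nuclear and -0.06 for mitochondrial members and 6 of 86 members at an unadjusted p under 0.05, against 19.7% of all genes. Atp5b, for example, had 91710, 90210 and 90760 in crisis spleen MEP, against 87870, 90320 and 83470 in young WT spleen MEP (log2 change 0.06, adjusted p = 0.649). The member with the smallest p in bone marrow MEP was Cox6b2, at 3768, 3523 and 3830 in crisis libraries, against 2199, 2811 and 2060 in young WT libraries (log2 change 0.67, SE 0.149, adjusted p = 0.261). Those in spleen MEP were Cox7b (log2 change 0.22, adjusted p = 0.182), Ndufa7 (0.22, adjusted p = 0.221) and Uqcr10 (0.22, adjusted p = 0.226).

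In bone marrow SMP 9 nuclear members were called higher and no mitochondrial one, against 3.74% of all genes called higher. They were the complex I subunits Ndufb9, Ndufc2 and Ndufs1, Uqcr11 of complex III, Cox5b, Cox6a1, Cox6b1 and Cox6b2 of complex IV, and Atp5l of the membrane part of ATP synthase. Apart from Cox6b2 (log2 change 1.06, adjusted p = 0.0212) their log2 changes were small, from 0.33 (Ndufs1) to 0.47 (Atp5l). Cox5b, for example, had 5113, 5593 and 5076 in crisis libraries, against 3928, 4361 and 3800 in young WT libraries (log2 change 0.39, SE 0.0886, adjusted p = 0.0299). The median was 0.24 over the 76 nuclear members tested and 0.00 over all genes, and 43 nuclear members had crisis libraries all above young WT libraries, where 15.2% of all genes did. The mitochondrial members had a median of 0.21 with overlapping groups throughout. For example, mt-Nd1 had 69370, 158100 and 144200 in crisis libraries, against 82790, 83270 and 65870 in young WT libraries (log2 change 0.60, adjusted p = 0.207). The mitochondrial share was 2.488% to 3.038% in the 4 libraries whose low values move in steps of 1 size. Crisis mouse 2608 and young WT mouse m25dwt are among these. In the 7 other libraries of the population the share was 3.174% to 4.233%: 4.233% and 3.888% in crisis, 3.319% and 3.174% in young WT. The part of this split in the overlap was not tested. Between 0 and 35 members were called when any 1 crisis or young WT library was left out. There were 35 without crisis mouse 2608 and 2 or fewer without any other. The share of all genes called in these left-out fits is not given here. The count was 1 with crisis and young WT fitted alone, 0 on the values as deposited, 4 without the filter, 5 without mice 2726 and 27265, and 19 with a covariate for libraries whose low values move in steps of 1 size.

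Spleen SMP had the most members called of the 6 populations. The nuclear share was 0.9289%, 1.072% and 1.066% in crisis libraries, against 0.7214%, 0.6488% and 0.5692% in young WT libraries. Of the 76 nuclear members tested, 67 were called higher and none lower, where 16.2% of all genes were called higher. The share of all genes called lower in this fit is not given here. Of the same members 71 had crisis libraries all above young WT libraries, where 25.6% of all genes did. The median log2 change was 0.96 over these 76 members and -0.04 over all genes. Called higher were 31 of 36 nuclear subunits of complex I, 8 of 8 of complex III, 12 of the 14 tested of complex IV, and 15 of 15 of complex V. The 67 also count Ndufa4l2, which passed the filter through its crisis libraries alone and is described further on without a test. The 7 core subunits of complex I were all called, and 24 of its 29 accessory subunits, with changes of 0.39 to 1.52 over all 29. In ATP synthase the 5 subunits of the catalytic head had a median of 0.80 and the other 10 a median of 1.0.

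Of the members called apart from Ndufa4l2, the largest changes were those of small accessory subunits. Uqcr11, a small accessory subunit of complex III, had 3591, 6596 and 4699 normalised counts in crisis libraries, against 1871, 1764 and 1368 in young WT libraries (log2 change 1.54, SE 0.253, adjusted p = 0.0217). Ndufb4 of the complex I membrane arm, whose reads could be shared with Ndufb4c, had 1302, 1800 and 1169 in crisis libraries, against 560.7, 670.8 and 305.6 in young WT libraries (log2 change 1.52, adjusted p = 0.0217). Atp5mpl, a proteolipid of ATP synthase (log2 change 1.49), and Cox7a2, the ubiquitous isoform of subunit 7a (log2 change 1.48), followed. In every one of these the lowest crisis library was above the highest young WT library.

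At the other end of the called range, Ndufa13 had 2515, 3169 and 2970 in crisis libraries, against 2231, 2028 and 1572 in young WT libraries (log2 change 0.58, SE 0.176, adjusted p = 0.0344). Ndufa3 (0.64), Atp5j (0.64) and Atp5d (0.69) were close to it. Atp5b, the catalytic beta subunit, had 84970, 129300 and 107200 in crisis libraries, against 60910, 54440 and 51620 in young WT libraries (log2 change 0.93, SE 0.187, adjusted p = 0.0217). Cox4i1, the ubiquitous isoform of subunit 4, had 12660, 21330 and 17990 in crisis libraries, against 9282, 8669 and 6369 in young WT libraries (log2 change 1.08, adjusted p = 0.0217). Not called were Ndufa6, Ndufab1, Ndufb2, Ndufb11, Ndufv3, Atp5s, Cox7a2l, Cox4i2 and Cox6a2, and Cox7a1 and Cox8b were under the filter. The order among the 3 crisis libraries depends on the rescaling, which raised mouse 2629 most (log2 factor -0.918, against -0.106 and 0.196 for mice 2608 and 2953), and its nuclear share lay close to that of mouse 2953.

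The mitochondrial members of the same spleen SMP libraries had a median log2 change of 0.54, and 2 of 13 were called higher, near the 16.2% of all genes. For mt-Nd1, at the junction of the complex I arms, the level was 106300, 186300 and 125500 in crisis libraries, against 50130, 72740 and 70690 in young WT libraries (log2 change 1.09, SE 0.353, adjusted p = 0.0412). For mt-Nd3 it was 9113, 14170 and 7220 in crisis libraries, against 3840, 6083 and 3947 in young WT libraries (log2 change 1.11, SE 0.324, adjusted p = 0.0308). The groups did not overlap for 6 of the 13, where 25.6% of all genes were higher without overlap, and mt-Cytb had the smallest change (0.26, adjusted p = 0.391). As a mean over members, the log2 level of the mitochondrial genes stood 3.64 ± 0.196 above that of the nuclear genes in crisis libraries and 3.98 ± 0.28 above it in young WT libraries (SD, n = 3 each), so the groups overlapped on this contrast, which was not tested. In whole bone marrow the same difference was 5.33 ± 0.17 in crisis libraries and 4.49 ± 0.302 in young WT libraries (SD, n = 3 each), without overlap.

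**Figure D3:**
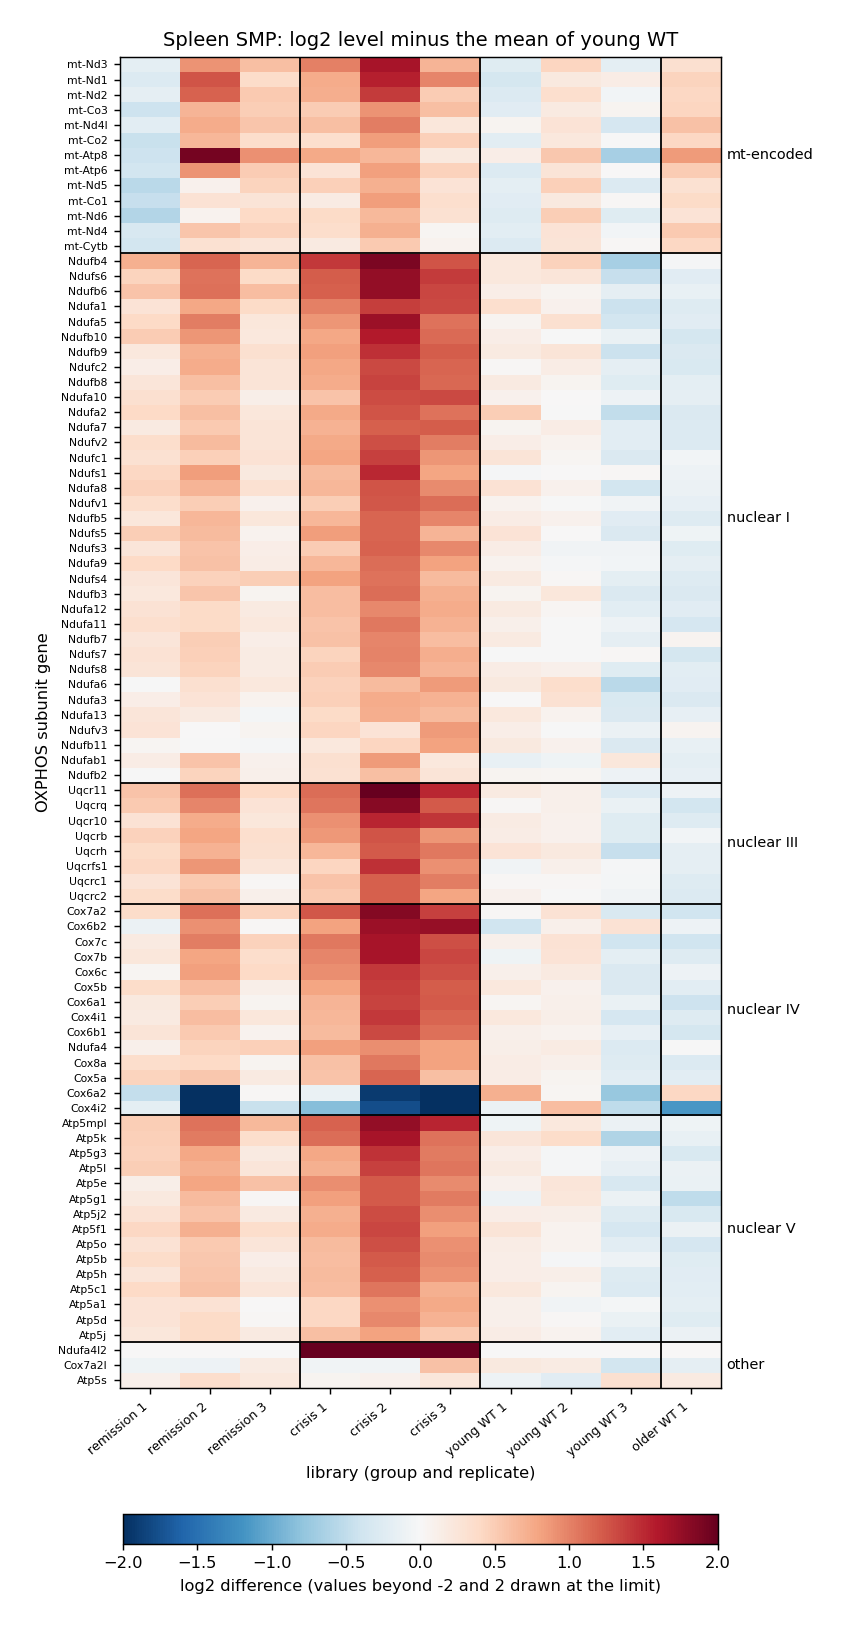
Log2 level of members tested (rows, by genome and complex) in each spleen SMP library on the rescaled values (columns, ordered remission, crisis, young WT, older WT) minus the mean of the young WT libraries; red is higher and blue lower. Nearly all nuclear rows are red in the 3 crisis columns, and Cox4i2 and Cox6a2 are blue.

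The count of called members in spleen SMP rests on every young WT library. Without any 1 of the 3 young WT libraries no member was called. In these fits 72 to 77 members had an unadjusted p under 0.05 and the nuclear median stayed between 0.86 and 1.03. Without crisis mice 2608, 2629 or 2953 in turn 73, 46 and 62 members were called. Shares of all genes are not given here for these counts, so they are not read against all genes. On the values as deposited, before the columns were rescaled, the median log2 change of all genes was -0.55, that of the nuclear members 0.45 and that of the mitochondrial members 0.03, and 4 nuclear members were called higher and 1 lower. The young WT spleen SMP mice contributed to no other population, whereas the 3 crisis mice did. Markers moved as well: 4 of 7 MEP markers were called higher (Gata1 by a log2 change of 1.30, Klf1 by 1.41, Epor by 1.68), and 5 of 7 SMP markers lower (Cd34 by -1.46, Flt3 by -1.53, Spi1 by -1.28). The summed level of the 7 MEP markers was 67490 to 217800 in crisis libraries, against 29410 to 47620 in young WT libraries, and that of the 7 SMP markers was 23120 to 75210, against 80780 to 132500. Of 8 erythroblast markers 4 were called higher, with sums of 338000 to 821400 in crisis libraries, against 75910 to 356000 in young WT libraries. In bone marrow SMP 4 MEP and 6 erythroblast markers were called higher and 2 SMP markers lower. The shares of all genes called lower in the 2 SMP fits are not given here. The part of these markers' cells in the changes of the members was not tested.

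The difference between populations was tested directly. The crisis effect in spleen SMP minus that in bone marrow SMP, with mouse as a random block, was positive and called for 21 nuclear members (9 of complex I, 4 of complex III, 3 of complex IV and 5 of complex V), where 1.53% of all genes were called higher, and for no mitochondrial member. The largest differences were those of Cox7a2 (log2 1.15, SE 0.247), Ndufb6 (1.13, SE 0.205) and Atp5mpl (1.11, SE 0.218), each with an adjusted p of 0.0492, the value all 21 share, and the median was 0.69 over nuclear and 0.41 over mitochondrial members. No member was called when the block was dropped or when mice 2726 and 27265 were left out. None was called either without any 1 of the 6 young WT libraries, the 3 crisis bone marrow libraries or the spleen library of crisis mouse 2629. In each case 63 or more members had an unadjusted p under 0.05. The share of all genes at that p is not given here. In whole tissue no member was called for this difference (10.7% of all genes), with medians of 0.51 for nuclear and -0.82 for mitochondrial members and 7 members at an unadjusted p under 0.05, against 28.2% of all genes. Without mice 2726 and 27265, 29 members were called higher there, against 13.4% of all genes, and 1 lower. In MEP no gene was called (0%), and no member had an unadjusted p under 0.05, against 4.87% of all genes.

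The crisis effect in SMP minus that in MEP, a difference chosen after the data were seen, was called and positive for 55 nuclear members in spleen (26 of complex I, 5 of complex III, 10 of complex IV and 14 of complex V), where 4.25% of all genes were called higher. The largest were Uqcr11 (log2 1.35, SE 0.259, adjusted p = 0.0275), Atp5k (1.28, SE 0.304, adjusted p = 0.0317) and Ndufs6 (1.28, SE 0.254, adjusted p = 0.0275). The median was 0.81 over nuclear members and 0.51 over mitochondrial members, of which none was called. In bone marrow no member was called (0.856% of all genes), 36 had an unadjusted p under 0.05, against 12.3% of all genes, and the medians were 0.27 for nuclear and 0.40 for mitochondrial members. The spleen count was 0 without the block and 0 on the values as deposited, where the medians were 0.19 for nuclear members, -0.12 for mitochondrial members and -0.59 for all genes, and it ranged from 0 to 66 as single libraries were left out. It was 0 without crisis mice 2629 or 2953 of either population, without young WT spleen MEP mice 2658 or 2685, and without young WT spleen SMP mouse 2810, and it was 2 without the third young WT spleen MEP library and 27 without young WT spleen SMP mouse 2808.

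Nuclear members were mostly higher in MEP than in SMP in young WT mice of both organs and in crisis bone marrow. All 7 SMP markers were called lower in MEP in each of the 4 comparisons, and of 7 MEP markers 4 or 5 were called higher and 2 lower. In crisis spleen 11 nuclear members were called higher and 3 lower, against 17.3% and 26.1% of all genes, with a median of 0.18, and no mitochondrial member was called (median 0.24, 2 at an unadjusted p under 0.05). The 14 calls became 6 without the block, 6 without crisis mouse 2608 in MEP, and 3, 32 and 8 without crisis mice 2608, 2629 and 2953 in SMP. In young WT spleen 70 nuclear members were called higher in MEP and 2 lower, against 29.6% and 34.4% of all genes, with a median log2 difference of 1.03, and all 13 mitochondrial members were called higher, with a median of 0.90. In crisis bone marrow 67 nuclear members were called higher and 4 lower, against 32.8% and 35% of all genes (median 0.64), with 2 mitochondrial members called higher (median 0.14). In young WT bone marrow 69 were called higher and 2 lower, against 34% and 36.4% of all genes (median 0.89), with 10 mitochondrial members called higher (median 0.52). The members called lower were Cox4i2 in all 4 comparisons, Cox6a2 in both spleen ones and crisis bone marrow, Cox7a1 in young WT bone marrow, Ndufv3 in both crisis ones and Cox7a2l in crisis bone marrow; Cox4i2, Cox7a1 and, in spleen, Cox6a2 had passed the filter through SMP alone. The called mitochondrial members in crisis bone marrow were mt-Nd2 (0.54) and mt-Nd3 (0.48).

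Uqcr11 (chr10:80402997-80406830, minus strand) gives the sizes behind these medians. On a scale common to MEP and SMP of an organ, which differs from that of the levels within 1 population, it averaged 4555 ± 682 in MEP and 3933 ± 989 in SMP of crisis spleen (log2 difference 0.23, adjusted p = 0.268), and 4282 ± 78.6 in MEP and 1444 ± 255 in SMP of young WT spleen (log2 difference 1.58, adjusted p = 1.04e-05; SD, n = 3 each, limma). Young WT MEP and SMP of spleen came from different mice, crisis MEP and SMP from the same 3. On the values as deposited the median of all genes was -0.23 in crisis and -0.96 in young WT spleen and -0.39 in crisis and -0.27 in young WT bone marrow, and the nuclear medians in that order were -0.03, 0.20, 0.29 and 0.69, so the nuclear median turned negative in crisis spleen and stayed above that of all genes in all 4. The calls on that scale, all nuclear, were 0 higher and 2 lower in crisis and 2 higher and 4 lower in young WT spleen, and 2 higher and 3 lower in crisis and 40 higher and 2 lower in young WT bone marrow. The mitochondrial median turned to -0.21 in crisis bone marrow on that scale.

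**Figure D4:**
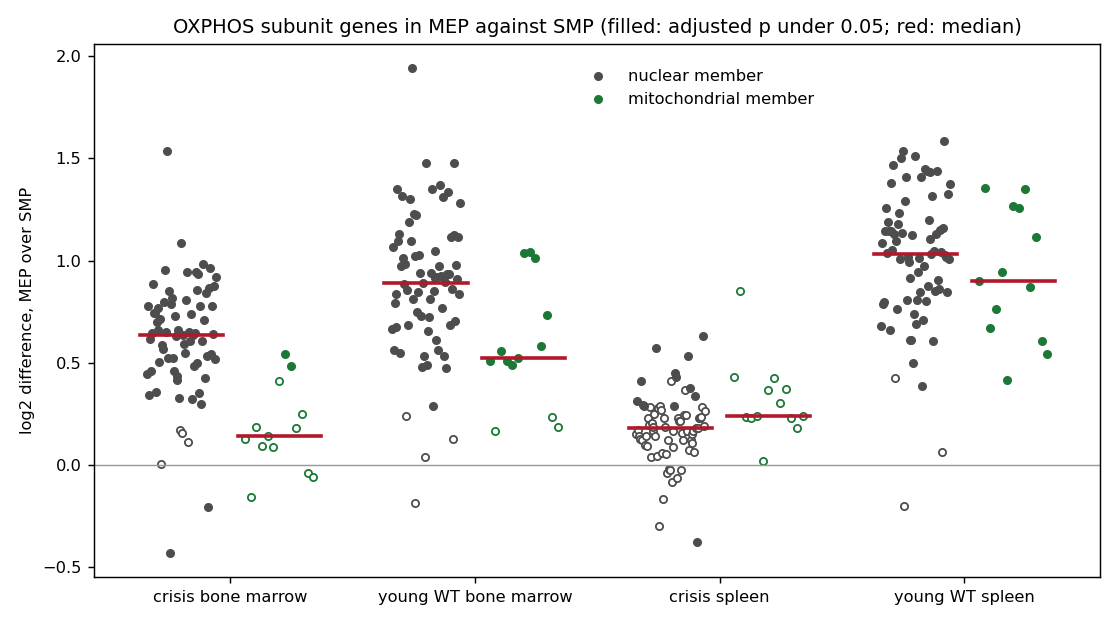
Log2 difference of each member tested, MEP over SMP (y axis), in crisis and young WT of bone marrow and spleen (x axis); grey points are nuclear and green points mitochondrial members, filled where the adjusted p is under 0.05, and red bars are medians over all members tested. Cox4i2, Cox6a2 and Cox7a1, at low levels in MEP, enter the medians and are not drawn. The nuclear median is 0.18 in crisis spleen and 1.03 in young WT spleen.

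The rare isoforms of complex IV subunits had low levels in MEP, given here as means on the scale common to both populations. Cox4i2, an isoform of subunit 4 known from lung and low oxygen, averaged 0.838 ± 0.779 in MEP and 28.5 ± 14.5 in SMP of crisis bone marrow, and 4.18 ± 3.62 in MEP and 47.2 ± 14.3 in SMP of young WT bone marrow (SD, n = 3 each). In crisis spleen it was listed at 0 in all 3 MEP libraries, where SMP of the same mice averaged 24.5 ± 16.5 (SD, n = 3), and in young WT spleen it averaged 2.11 ± 3.66 in MEP and 84.7 ± 36.0 in SMP (SD, n = 3 each). The groups did not overlap in any of the 4, but Cox4i2 passed the filter through SMP alone, so its 4 calls are no support and no fold is given. Cox6a2 was called lower in MEP in crisis bone marrow, at 10.3 ± 10.2 in MEP and 198 ± 222 in SMP (SD, n = 3 each), and its log2 difference in young WT bone marrow was -2.05 (adjusted p = 0.0838). In spleen it passed the filter through SMP alone, with 0.463 ± 0.802 in MEP and 49.7 ± 49.3 in SMP of crisis mice, and 24.1 ± 39.7 in MEP and 131 ± 65.8 in SMP of young WT mice, the last pair overlapping (SD, n = 3 each). Both are rare: per kilobase, over all libraries, Cox4i2 had a level of 27 and Cox6a2 of 152, against 7976 for Cox4i1 and 10420 for Cox6a1. Cox7a1, the muscle isoform of subunit 7a, averaged 8.42 ± 5.39 in MEP and 25.2 ± 7.24 in SMP of young WT bone marrow (SD, n = 3 each), and Cox8b had a level of 1.12 per kilobase. Within spleen SMP, on that population's own scale, Cox4i2 had 50.67, 26.47 and 13.42 in crisis libraries, against 85.38, 143 and 64.6 in young WT libraries, without overlap (log2 change -1.77, adjusted p = 0.0678).

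Cox6b2 ran against these rare isoforms. It was higher in MEP than in SMP in all 4 comparisons (1.53 in crisis and 1.94 in young WT bone marrow, 0.57 in crisis and 1.503 in young WT spleen, all called), and all its crisis libraries were above all young WT libraries in each of the 6 populations. The log2 changes were 2.32 in whole spleen and 1.40 in whole bone marrow, 1.42 in SMP of spleen and 1.06 in SMP of bone marrow, and 0.39 in MEP of spleen and 0.67 in MEP of bone marrow, of which those in whole bone marrow and both SMP populations were called. These 6 comparisons share the 3 crisis mice. In spleen SMP it had 1798, 3365 and 3434 in crisis libraries, against 783, 1100 and 1264 in young WT libraries (SE 0.334, adjusted p = 0.0219). The gene lies at chr7:4751792-4753094 on the minus strand of GRCm38, and no exon of another annotated gene overlaps its exons.

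Ndufa4l2, at chr10:127514967-127517154 on the plus strand, was low throughout. In spleen SMP it had 6.65, 37.8 and 102.4 normalised counts in crisis libraries, and it was listed at 0 in all remission, young WT and older WT libraries. In bone marrow SMP it had 1.131, 2.401 and 5.746 in crisis libraries and was listed at 0 in all 8 others, under the filter. Whole bone marrow had 54.15, 37.02 and 44.94 in crisis libraries, against 0, 11.01 and 19.59 in young WT libraries. In bone marrow MEP the level was 7.359, 14.84 and 29.05 in crisis libraries, against 0, 5.498 and 6.312 in young WT libraries, and in spleen MEP 4.123, 8.3 and 18.13, against 1.333, 0 and 2.649, both too low to be tested. The groups overlapped in whole spleen alone. A stretch of 32 bases of its exons overlaps Shmt2 on the other strand.

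**Figure D5:**
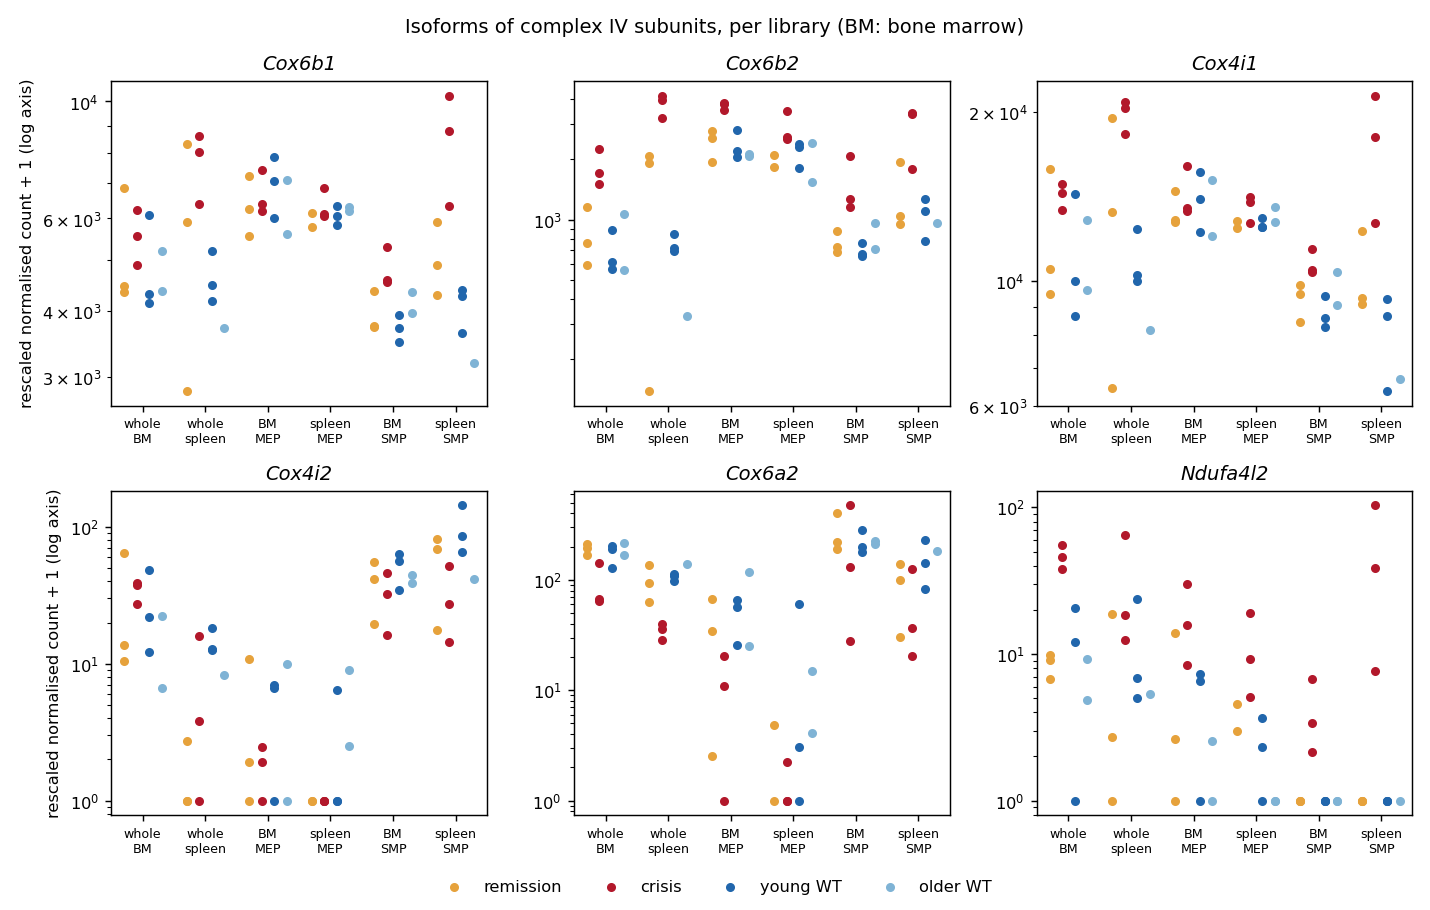
Rescaled normalised count plus 1 (log axis) of 5 complex IV genes and Ndufa4l2 in each library (points), by population (x axis), with groups ordered remission, crisis, young WT, older WT. Cox6b2 is above young WT in all crisis libraries of each population, Cox4i2 and Cox6a2 are low in MEP, and Ndufa4l2 sits at 1 (listed at 0) in all SMP libraries outside crisis.

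Remission libraries were set against crisis libraries in the same fits. No member was called in any population. Over all genes the share called was 1.25% in SMP and 0.00693% in MEP of bone marrow, and 0% in whole bone marrow and in each of the 3 spleen populations. At an unadjusted p under 0.05 the members were most frequent in spleen SMP, with 63 nuclear members and no mitochondrial one, against 20.8% of all genes. With crisis mouse 2608 left out 35 members were called lower there, among 704 genes called lower and 1237 called higher in all, and none with any other library left out. The median log2 change, remission over crisis, was -0.58 over nuclear and -0.37 over mitochondrial members, and 56 nuclear members had remission libraries all below crisis libraries, where 9.07% of all genes did. Cox6a1 had 5311, 6509 and 4801 in remission libraries, against 7364, 11820 and 10790 in crisis libraries (log2 change -0.83, SE 0.196, adjusted p = 0.197). Atp5b had 71790, 80520 and 60680 in remission libraries, against 84970, 129300 and 107200 in crisis libraries (log2 change -0.58, adjusted p = 0.198). Both sat between young WT and crisis in their means.

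Bone marrow SMP, where 22 members were called without crisis mouse 2608 (among 1464 genes called higher and 1270 lower in all) and none without any other library, had 35 nuclear members at an unadjusted p under 0.05, against 23.1% of all genes, a nuclear median of -0.20, and 40 nuclear members with remission libraries all below crisis libraries, where 10.9% of all genes did. The smallest adjusted p there was near the threshold for Cox6b2, at 686, 724.5 and 875.1 in remission libraries, against 1159, 1269 and 2074 in crisis libraries (log2 change -0.94, SE 0.206, adjusted p = 0.0524). In whole bone marrow 8 mitochondrial and 5 nuclear members had an unadjusted p under 0.05, against 15.7% of all genes, with medians of -0.79 and -0.13. For mt-Co1 the level was 505500, 935300 and 863600 in remission libraries, against 1330000, 1526000 and 1118000 in crisis libraries (log2 change -0.83, SE 0.283, adjusted p = 0.205), without overlap. In whole spleen 7 nuclear members had an unadjusted p under 0.05, against 20.1% of all genes, with medians of -0.56 for nuclear and 0.14 for mitochondrial members. Bone marrow MEP had 1 such member, against 11.4% of all genes, and spleen MEP, with 2 remission libraries, had 5, against 6.96% of all genes.

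Genes around the complexes were read in spleen SMP from lists drawn up with earlier results of these data known. All 4 genes of complex II, which is wholly nuclear, were called higher in crisis, with a median log2 change of 0.64: Sdhd, its membrane anchor, averaged 11980 ± 2570 in crisis libraries and 5185 ± 647 in young WT libraries (log2 change 1.19, adjusted p = 0.0217; SD, n = 3 each, limma). Of 12 electron carriers 9 were called higher, among them cytochrome c, Cycs (1.15, adjusted p = 0.0224). Of 77 mitochondrial ribosome proteins 69 were called higher (median 0.92), of 26 genes of mitochondrial transcription and RNA handling 13, of 40 assembly factors 22, of 15 tricarboxylic acid cycle genes 13, and of 13 genes used as gauges of mitochondrial mass all 13 (median 1.06). None of these 7 lists had a member called lower, and the share of all genes called lower is not given here. Over all genes 16.2% were called higher in this fit, and next to no gene was called in it without any 1 young WT library (2 without mouse 2808, none without the others). Of 15 genes of mitophagy and mitochondrial clearance 2 were called higher and 1 lower. Of 14 nuclear regulators tested, Nrf1 (0.56, adjusted p = 0.0453) and Tfam (0.70, adjusted p = 0.0219) were called higher. Tfam is the packaging factor of mitochondrial DNA, and 11 others were not called. Ppargc1a was listed at 0 in all crisis libraries and passed the filter through the other libraries alone, so its lower call is no support. Atpif1, which inhibits ATP synthase from running backwards, had a log2 change of 1.18 in spleen SMP (adjusted p = 0.0217) and was called in bone marrow SMP too (0.53). In bone marrow SMP, where 3.74% of all genes were called higher, the same lists in that order had 1 of 4, 1 of 12, 6 of 77, 4 of 26, 1 of 40, 2 of 15 and 5 of 13 called higher; the difference between the populations was not tested for them. No gene of these lists was called in MEP of either organ.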

How the data were processed

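RNA was sequenced from libraries of the KAPA mRNA HyperPrep kit, per the labels' protocols. The authors deposited 1 signal value per gene and library, normalised gene counts, and a table of regularised log2 values, used as an alternative. Per the submitters' processing notes, Bowtie2 2.2.0, RSEM, DESeq2 and GRCm38 were used, with roles not given in the sources used here. The low values of the deposited signal move in steps of 1 size in 15 libraries and of several sizes in the others, so raw counts were not recovered and no count model was run; intervals for counting error are not given. Symbols and coordinates came from GENCODE M21 (25607 of 26286 IDs matched), and near-identical copies were found with BLAST 2.17.0. Printed levels are rescaled normalised counts rounded to 4 digits.

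Columns were rescaled by the median ratio to the geometric mean. This was done within each population, also for spleen minus bone marrow. For fits with both MEP and SMP, the 2 populations of an organ were rescaled together. Fits with libraries left out kept these factors. The log2(value + 1) of genes with a mean of at least 10 was fitted with limma 3.58.1 in R 4.3.3 (trend and robust empirical Bayes, two-sided, Benjamini-Hochberg over all genes), with all 4 groups of a population in the fit. Comparisons across tissues or cell types had mouse as a random block (correlation 0.2872 to 0.5428), since 1 mouse gave several of their libraries. The fit of crisis against young WT within a population was run on simulated data with independent noise. Its outcome is not given here, and fits with the mouse block were not simulated. Other analysis used Python 3.11.15 and pandas 2.3.3. Members, gene lists and markers were chosen with earlier results of these data known. Named were all mitochondrial members, and of nuclear members the 5 highest and 5 lowest called per crisis comparison, or the smallest p to 3 in all, and isoforms; Atp5b, Ndufs1 and others in that list were always named. Ndufs6, Ndufb6, Atp5k, Sdhd and Cycs were chosen as examples after their values were seen. Effects in SMP minus MEP were added after the data were seen. The values of 1 member that enters the counts are not reported here. 1 whole spleen library without a settled group was left out.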

Additional observations from a re-analysis of the deposited data

Results flagged for a closer look

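The crisis effects of nuclear members differed between populations by a direct test of the difference. Between spleen and bone marrow SMP 21 members differed, with the largest log2 differences in Cox7a2 (1.145), Ndufb6 (1.127) and Atp5mpl (1.108), each higher in spleen, where 1.53% of all genes were called higher. No member was called there without the mouse block or without mice 2726 and 27265, and 0 to 65 were called with single libraries left out. Between spleen SMP and spleen MEP 55 members differed, with the largest log2 differences in Uqcr11 (1.352), Atp5k (1.284) and Ndufs6 (1.282), each higher in SMP, where 4.25% of all genes were called higher. That comparison was chosen after the data were seen, and its count was 0 without the block, 0 on the values as deposited and 0 to 66 with single libraries left out. No group has more than 3 libraries, so single libraries were not tested as lying apart.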

How the results depend on the processing

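Counts of called members and medians both depended on the setting. Crisis against young WT fitted on those 2 groups alone gave 60 called members in whole spleen, 10 in whole bone marrow and 1 in bone marrow SMP. Deposited values without rescaling gave 5 in spleen SMP, 0 in bone marrow SMP, 0 in whole spleen and 1 in whole bone marrow. Their medians were 0.352 for nuclear members of bone marrow SMP (all genes 0.112), 0.247 and 0.148 for nuclear and mitochondrial members of spleen MEP (all genes 0.191), and 0.452 and 0.034 in spleen SMP (all genes -0.553). With 1 step size as a covariate the counts were 19 in bone marrow SMP, 0 in whole spleen and 16 in whole bone marrow; in spleen SMP this could not be fitted. Without a filter on low values bone marrow SMP had 4. Without mice 2726 and 27265 the counts were 61 in whole spleen, 10 in whole bone marrow, 5 in bone marrow SMP, 1 in whole spleen for remission against crisis, 30 for spleen minus bone marrow in whole tissue and 0 in SMP, the last with 66 members at an unadjusted p under 0.05. MEP against SMP on deposited values gave 5 in crisis and 42 in young WT bone marrow and 2 in crisis and 6 in young WT spleen.

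Dropping the replicate block of mice gave 0 called members for spleen minus bone marrow in SMP and 0 for SMP minus MEP in spleen. Spleen minus bone marrow in whole tissue and MEP and SMP minus MEP in bone marrow stayed at 0. MEP against SMP without the block had 6 in crisis spleen, 73 in crisis bone marrow, 79 in young WT bone marrow and 85 in young WT spleen. For crisis against WT and remission against crisis no block was fitted. No paired analysis was possible because these groups share no mouse and the labels give no replicate number. SMP minus MEP in spleen on deposited values gave 0.

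Leaving out 1 library at a time gave 0 to 73 called members in spleen SMP, 0 to 35 in bone marrow SMP, 0 to 3 in whole bone marrow and 0 to 0 in the other 3 populations for crisis against young WT. Nuclear medians ranged from 0.105 to 0.326, 0.643 to 0.809, -0.092 to 0.028, -0.006 to 0.081, 0.188 to 0.287 and 0.807 to 1.106 in whole bone marrow, whole spleen, MEP of bone marrow, MEP of spleen, SMP of bone marrow and SMP of spleen, and mitochondrial medians from 0.887 to 1.213, -0.353 to 0.542, -0.313 to -0.13, -0.177 to 0.075, 0.065 to 0.429 and 0.406 to 0.724. For remission against crisis the counts were 0 to 1 in both whole tissues, 0 in both MEP populations, 0 to 35 in spleen SMP and 0 to 22 in bone marrow SMP. Spleen minus bone marrow gave 0 to 1 in whole tissue, 0 in MEP and 0 to 65 in SMP, MEP against SMP 71 to 76 and 77 to 80 in crisis and young WT bone marrow and 3 to 32 and 80 to 85 in crisis and young WT spleen, and SMP minus MEP 0 in bone marrow and 0 to 66 in spleen. The changes of single named members were counted once per change and setting. Of these pairs 4036 kept direction and side of the threshold, 283 lost the call and 119 gained one. They stem from 325 changes in the main fits, so 1 change can count under more than 1 of these headings. The cause of these shifts was not tested. Shares of all genes are not set beside the left-out counts here.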

Other observations

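One whole spleen library, of mouse 27265 at 58 days, had labels that did not settle its group. The other libraries of this mouse are in the older WT groups. The library had 2.226% of its normalised counts in mitochondrial members and 0.6039% in nuclear members. Among whole spleen libraries of known group the mitochondrial share was 1.735% to 4.757% and the nuclear share 0.4101% to 0.6311%.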
